A study of Mus musculus with 7 samples.

Results

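Of the 7 arrays in the series, 3 were compared here: the 2 arrays of corpus taken 48 h after the last dose of diphtheria toxin, called the first and second 48 h array by their labelled replicate number, and the array of the saline control. The mice carried the Atp4b-DTR transgene, in which the promoter of a gastric proton pump subunit gene places a diphtheria toxin receptor on parietal cells. The control mouse carried it too and received saline, so no array with toxin and without the receptor was analysed here. Toxin was injected into the abdomen at 225 ng per mouse on each of 3 days, and the mice were 8 to 12 weeks old. The remaining arrays, 1 at 24 h, 1 at 36 h and 2 at 72 h, are given as values beside those of 48 h. In the statistical test the 72 h pair also contributes to the spread, and so to every p-value and standard error. The labels call the 48 h samples independent and state littermate controls as used where possible, without saying for which samples. The p-values therefore measure only the spread between the samples of the 48 h and 72 h pairs, and the control has no replicate.

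Parietal cells secrete hydrochloric acid through a proton pump, potassium and chloride channels and anion exchangers, and they are packed with mitochondria that supply ATP to the pump. They also release growth factors and hormones that act on their neighbours in the gland. Loss of parietal cells in the mouse corpus is known to be followed by division of progenitor cells in the neck of the gland and by mucous changes in the chief cells at its base. The comparison asked which genes stood apart from saline tissue at 48 h of recovery, and on which of them the paired arrays differed.

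All values are log2 signal or differences in log2 signal from the control array, so that 1 unit is 2-fold. On the control array the corpus genes Atp4a, Atp4b and Pgc had signals of 12.78, 12.94 and 13.37. The intestinal genes Sis, Alpi and Fabp2 had 2.77, 4.86 and 6.77, and the pancreatic genes Cpa1 and Cela1 4.13 and 6.61. The squamous genes Krt4 (7.79), Krt10 (7.47) and Krtdap (7.14) were also measured there. Signals of different probe sets cannot be ranked, so these values do not settle the make-up of the tissue. Xist, the RNA of the inactive X chromosome, was high on the control and 24 h arrays (8.13 and 9.17) and low on the other 5 (2.70 to 3.27). Eif2s3y, a gene of the Y chromosome, ran the opposite way: 3.81 for the control, 3.4 at 24 h, then 8.11 and 8.2 at 48 h. The 48 h arrays thus differed from the control in this sex pattern as well as in treatment. From the 48 h and control arrays alone, sex pattern and treatment cannot be told apart for any gene. Genes of the X and Y chromosomes were left out, and the 24 h array, which shared the pattern of the control, is quoted beside the main genes. Fewer cells of a type and less RNA per cell cannot be told apart in tissue RNA.

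Among 21264 genes, 82 (0.386%) were at least 2-fold higher than the control on both 48 h arrays and 231 (1.09%) were at least 2-fold lower on both. At 4-fold the counts were 6 and 29, and at 8-fold 2 and 7. The first array alone had 203 higher and 334 lower genes at 2-fold, and the second had 147 and 369. In 308 of the genes at least 2-fold from the control on both arrays, the smaller difference from the control exceeded the difference between the arrays. Without a minimum size, 6841 genes (32.2%) were higher on both arrays and 7284 (34.3%) lower on both. These shares and those at 2-fold are the background for the list counts below, and they include dim genes. The median control signal was 5.2 over all genes and 7.87 in those at least 2-fold lower on both arrays. The median gene differed by 0.0 on each array, and the arrays differed from each other by a median of 0.11, with a 95th percentile of 0.49. In limma, with the spread taken from the 48 h and 72 h pairs, no gene had an adjusted p under 0.05 (0.0%, smallest 0.12). At an unadjusted p under 0.05 there were 4209 genes, 1759 higher and 2450 lower. Differences below are therefore descriptions on 3 arrays, with a limma standard error after each ± sign (48 h arrays n = 2, control n = 1).

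**Figure D1:**
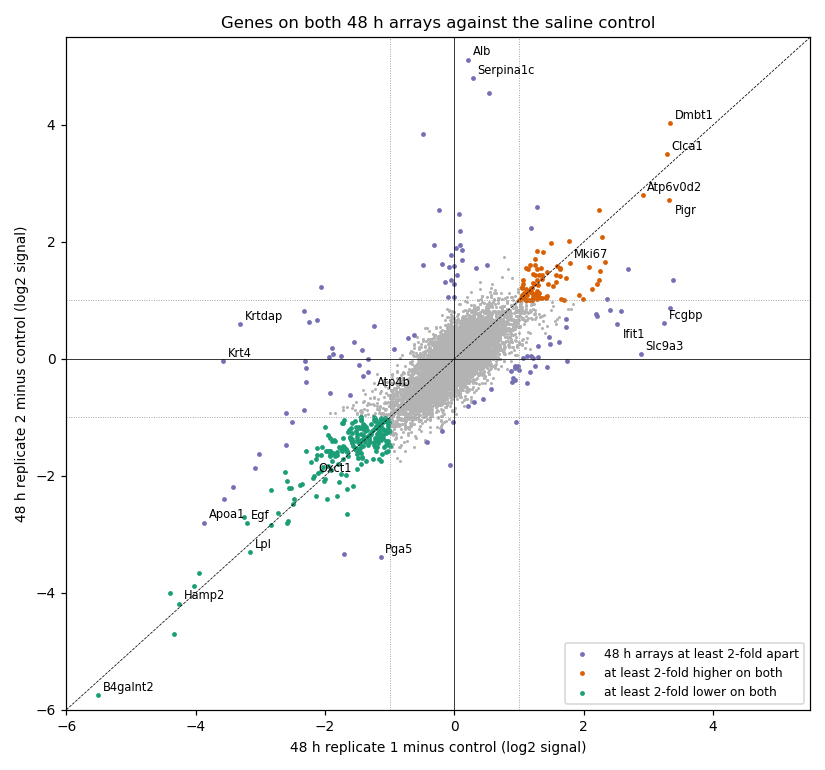
Each point is 1 of 21264 genes, with the log2 difference from the saline control on the first 48 h array (x axis) and on the second (y axis). Dotted lines mark 2-fold and the dashed line equal differences; 82 genes lie at least 2-fold up on both arrays and 231 at least 2-fold down, and the 107 genes in violet differ at least 2-fold between the arrays, with Alb and Serpina1c up on the second array only and Slc9a3 on the first only.

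The genes of acid secretion were lower on both arrays, and more so on the first. Of 18 measured genes of the pump and its transporters, 14 (77.8%, against 34.3% of all genes) were lower on both arrays and 5 of them at least 2-fold, with medians of -1.13 and -0.48. Slc26a7, a chloride and bicarbonate exchanger of the parietal cell, stood furthest from the control. Its signal was 8.66 on the control and 4.26 and 4.67 on the 48 h arrays, a difference of -4.20 ± 0.26, and 4.94 at 24 h. Aqp4, a water channel of the basolateral membrane, had 8.53 on the control and 5.69 and 6.29 at 48 h. Both 48 h arrays lay far below the control for these genes, and the arrays differed from each other by far less. The anion exchanger gene Slc4a2 went from 9.58 to 7.66 and 8.24, the potassium channel gene Kcnj16 from 10.75 to 9.63 and 9.01, and the chloride transporter gene Slc26a9 from 11.06 to 9.85 and 10.01.

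The pump itself stood nearer to the control than its exchangers. Atp4b, whose promoter drives the toxin receptor, had 12.94 on the control and 11.66 and 12.39 at 48 h, and 10.68 at 24 h. Atp4a, the catalytic subunit, had 12.78 on the control and 11.53 and 12.36 at 48 h. In both genes the 48 h arrays lay further from each other than the second lay from the control. Whether differences are compressed at signals this high was not tested. Kcnq1, the channel that returns potassium to the gland lumen, followed the same order, with 8.88 on the control and 7.48 and 8.15. The chloride channel gene Clic6 had 11.53, 10.32 and 10.67 in that order. Car2, the cytosolic carbonic anhydrase that provides protons for the pump, had 12.04 on the control and 12.26 and 12.05 at 48 h. Among 13 carbonic anhydrase genes, Car8 (-1.81 and -1.60) and Car9 (-1.73 and -1.54) were at least 2-fold lower on both arrays, and Car12 was higher (0.64 and 0.37). Atp6v0d2, a subunit of the vacuolar proton pump, was among the highest genes of the comparison, with 4.83 on the control and 7.74 and 7.63 at 48 h.

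Receptors that drive or restrain acid secretion were lower on both arrays by similar amounts. Of 14 receptor and regulator genes 11 (78.6%, against 34.3% of all genes) were lower on both, 5 at least 2-fold. The medians were -0.67 and -0.65. The histamine receptor gene Hrh2 had 7.02 on the control and 5.62 and 5.69 at 48 h. The prostaglandin receptor gene Ptger3 had 7.89 on the control and 6.38 and 6.27. The membrane oestrogen receptor gene Gper1 had 6.74 and then 5.42 and 5.39. In each of these genes the 48 h values lay close together and far below the control. Smaller differences were seen for the gastrin receptor gene Cckbr (-0.79 and -0.88), the somatostatin receptor gene Sstr2 (-0.98 and -0.84) and the muscarinic receptor gene Chrm3 (-0.55 and -0.46). Among regulators of mitochondrial genes, Perm1 had 5.63 on the control and 3.86 and 4.10 at 48 h, and the orphan nuclear receptor gene Esrrb was at -1.29 and -1.12. Its relative Esrra was above the control on both arrays, at 0.23 and 0.28.

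A set of mitochondrial enzymes that break down leucine, isoleucine and valine and use ketone bodies was low as a group. This list was drawn up after several of its genes had been seen among the lowest, so its counts describe the group and are no independent support. Of 23 measured genes 21 (91.3%, against 34.3% of all genes) were lower on both arrays, 13 at least 2-fold. The medians were -1.41 and -1.17. The list's median signal was 8.63 on the control and 7.47 on each 48 h array, and its median difference on the 24 h array was -1.31. Both subunit genes of the branched-chain keto acid dehydrogenase, which commits all 3 amino acids to breakdown, were lower. Bckdha had 8.34 on the control and 6.90 and 7.34 at 48 h. Bckdhb had 8.90 on the control and 7.48 and 7.41.

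The next steps of each branch were lower too. Acadsb, the dehydrogenase of the isoleucine branch, had 9.79 on the control and 7.44 and 7.65 at 48 h, a difference of -2.24 ± 0.37. On the leucine branch, Ivd had 8.58 on the control and 7.06 on both arrays, and Mccc1, a carboxylase subunit, had 9.17 and then 7.14 and 7.32. Auh, the hydratase that follows it, had 7.34 and then 5.85 and 5.65. The 48 h values of each gene lay close together. None overlapped its control, but these genes were named with both 48 h arrays on the same side of it, so the choice fixed this. The highest gene of the list, Bdh2, had a mean difference of 0.11. On the valine branch, Aldh6a1 had 10.85 on the control and 9.13 and 9.36 at 48 h. Oxct1, the enzyme that lets tissues burn ketone bodies, had 11.13 on the control and 8.97 and 9.12. Bcat2, the transaminase that starts the pathway, showed a smaller difference, with 8.10 on the control and 7.49 and 7.48.

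**Figure D2:**
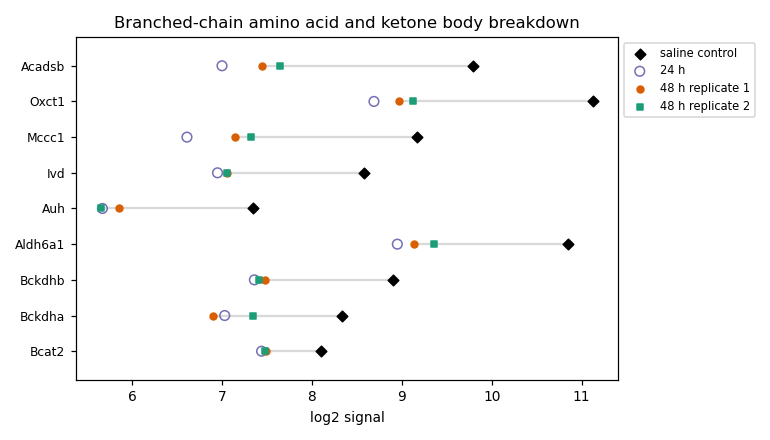
Log2 signal (x axis) of 9 named genes of branched-chain amino acid and ketone body breakdown on the saline control (diamonds), the 24 h array (open circles) and the first and second 48 h arrays (filled circles and squares). In every gene shown the 3 toxin arrays lie below the control, by 0.60 to 2.78 log2 units. Beyond the 3 anchors, the choice of genes fixes both 48 h arrays on 1 side of the control.

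The tricarboxylic acid cycle and the respiratory chain were lower by smaller amounts spread over many genes. Of 21 cycle genes 20 (95.2%, against 34.3% of all genes) were lower on both arrays, with medians of -0.41 and -0.38. Only Me3, a mitochondrial malic enzyme linked to the cycle, was at least 2-fold lower on both (-1.70 and -1.05). The isocitrate dehydrogenase gene Idh2 was at -0.84 and -0.91, and the malate dehydrogenase gene Mdh1 at -0.90 and -0.63. Of 31 complex I genes 27 (87.1%) were lower on both arrays, with medians of -0.46 and -0.21 and none at 2-fold. Ndufs1, the largest subunit, was at -0.78 and -0.75. Of 47 genes of complexes II to V 29 (61.7%) were lower on both, with medians of -0.29 and -0.11. Cox7a1, the muscle-type form of a cytochrome oxidase subunit, stood far from the others. Its signal was 8.61 on the control and 5.89 and 5.98 at 48 h. The adenine nucleotide carrier gene Slc25a4 had 9.62 on the control and 8.44 and 8.46. The 71 genes of the mitochondrial ribosome were divided near the background shares, with 24 higher and 28 lower on both arrays and medians of -0.04 and 0.0.

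Fuel genes around the mitochondria included several large differences. Of 22 genes of fatty acid oxidation 16 (72.7%, against 34.3% of all genes) were lower on both arrays, with medians of -0.21 and -0.38. None reached 2-fold on both. The medium-chain dehydrogenase gene Acadm was at -0.87 and -0.92. Among 33 glycolysis and glucose genes 16 were lower on both arrays (48.5%, against 34.3% of all genes), and 4 were at least 2-fold lower, against 1.09% of all genes. These were Pfkfb3, which sets the level of a glycolytic activator (7.45 on the control, 5.70 and 5.49 at 48 h), and Ldhb, a lactate dehydrogenase subunit (8.71, then 7.19 and 7.47). The others were Slc2a4, the insulin-responsive glucose transporter (7.35, then 5.92 and 5.74), and Slc16a7, a lactate and pyruvate transporter (10.94, then 8.80 and 9.23). Of 26 sterol genes 16 (61.5%) were lower on both arrays, none at 2-fold. Among them were Insig1 (-1.35 and -0.87) and the squalene synthase gene Fdft1 (-1.10 and -0.84). At 24 h these were at -1.68 and -1.55.

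The gene furthest below the control in the whole comparison was B4galnt2, which adds the terminal sugar of the Sda blood group antigen. Its signal was 9.19 on the control and 3.68 and 3.45 at 48 h, a difference of -5.63 ± 0.14. The value was 3.65 at 24 h, 3.28 at 36 h and 3.68 and 3.83 at 72 h, so that the control stood alone above all 6 toxin arrays. It was one of 7 genes at least 8-fold lower on both arrays at 48 h. Rnase1, a secreted ribonuclease, had 8.42 on the control and 4.09 and 3.72. Hamp2, a relative of the iron hormone hepcidin, had 9.53 on the control and 5.27 and 5.34, beside 5.64 at 24 h. Lpl, lipoprotein lipase, which frees fatty acids from circulating lipid, had 9.76 on the control and 6.60 and 6.45. Slc26a7 belongs to this set as well. Gpr155 had 9.17 on the control and 5.15 and 5.29 on the probe set used, but its 3 probe sets ranged from -3.95 to -0.11. Prnd, a gene related to the prion protein, had 8.13 and then 4.18 and 4.47, and its other probe set was at 0.07.

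Lipid handling and growth factor genes completed the lowest group. Cd36, a fatty acid transporter, had 10.28 on the control and 7.70 and 7.48 at 48 h, and Scd1, a fatty acid desaturase, had 7.53 and then 5.87 and 4.87. The apolipoprotein gene Apoa1 had 9.92 on the control and 6.05 and 7.12, and its neighbour Apoa4 had 9.30 and then 6.76 and 7.10. The growth factor gene Egf had 7.51 on the control and 4.30 and 4.70 at 48 h, beside 4.70 at 24 h. Other ligands and the receptor of its family stood close to the control: Tgfa was at 0.02 and -0.24, Hbegf at 0.0 on both arrays and Egfr at 0.47 and 0.22. Dusp6, a phosphatase that is a common target of the pathway, was at -1.72 and -1.10 on the probe set used and at -0.07 on its other probe set. Adcyap1r1, a receptor for the neuropeptide PACAP, had 7.92 on the control and 5.35 and 5.15, and the tight junction gene Cldn8 had 7.77 and then 5.20 and 5.56. At 24 h Cd36 had 7.73 and Cldn8 5.86.

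**Figure D3:**
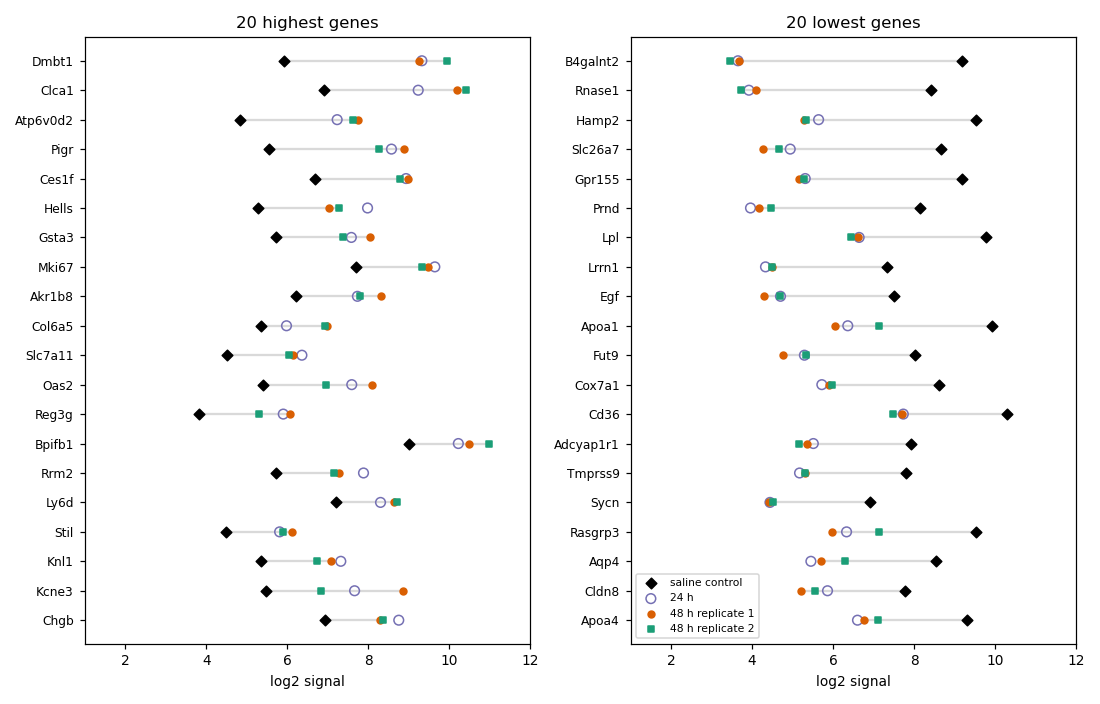
Log2 signal (x axis) of the 20 genes highest (left) and the 20 lowest (right) by the smaller of both 48 h differences, on the saline control (diamonds), the 24 h array (open circles) and the first and second 48 h arrays (filled circles and squares). Genes run from the largest difference at the top, Dmbt1 and B4galnt2, and the choice of genes fixes both 48 h arrays on 1 side of the control.

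Sugar transferases that finish mucin and blood group glycans held several members of the lower set. Of 41 genes 6 were at least 2-fold lower on both arrays, against 1.09% of all genes, and none higher. The list medians of 0.08 and -0.12 nevertheless lay near 0. Beside B4galnt2, its relative B4galnt3 had 7.57 on the control and 6.46 and 5.96 at 48 h. Fut9, a fucosyltransferase of Lewis antigens, had 8.03 and then 4.76 and 5.32. The sialyltransferase genes St3gal1 (-1.14 and -1.06), St3gal3 (-1.04 and -1.21) and St3gal6 (-1.04 on both) made up the rest. Fut2, the fucosyltransferase of the secretor antigen, stood at 0.07 and -0.16.

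Chief cell genes were lower on both arrays for the most part, but the main zymogen was not. Pepsinogen C (Pgc) had 13.37 on the control and 13.32 and 13.36 at 48 h. Its signal stayed within 13.18 to 13.46 on all 7 arrays, and whether the arrays resolve differences at such signals was not tested. Of 15 chief cell genes 11 (73.3%, against 34.3% of all genes) were lower on both arrays, 3 at least 2-fold. The medians were -0.36 on each. Cblif, gastric intrinsic factor, had 12.36 on the control and 11.40 and 11.50. Bhlha15, the transcription factor that builds the secretory apparatus, was at -0.99 and -0.67, and the chitinase gene Chia1 at -0.74 and -0.61. Pga5, a pepsinogen of the immature stomach, was lower on both arrays but unequally, with 8.23 on the control and 7.09 and 4.84. Endoplasmic reticulum genes were lower in parallel: of 34 genes of the unfolded protein response 26 (76.5%) were lower on both arrays. The medians were -0.32 and -0.25. Derl3 (-1.48 and -1.18) and Chac1 (-1.44 and -1.19) were at least 2-fold lower, and Xbp1, a master regulator of the response, was at -0.76 on both.

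Some digestive enzyme genes usually known from the pancreas were lower than the control, while Cpa1, Prss2 and Cela1 differed from it by less. Cpa1, a defining pancreatic gene, had 4.13 on the control and 4.06 and 4.09 at 48 h, and Prss2 had 3.97, 4.44 and 4.49. Cela1 had 6.61, 6.34 and 6.56 in that order, and 7.80 and 8.14 at 72 h. In the same list 5 of 24 genes were at least 2-fold lower on both arrays, against 1.09% of all genes. These were Rnase1 above, Sycn (6.90 on the control, 4.42 and 4.51 at 48 h), the lipase gene Cel (7.58, then 5.52 and 5.67), Try4 (-1.50 and -1.28) and Pnliprp1 (-1.45 and -1.04). Amy1, an amylase gene, was at -1.54 on both arrays.

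Genes of cell division were higher on both arrays almost without exception. All 46 measured genes of DNA replication and G1/S were higher on both, against 32.2% of all genes, and 4 of them were at least 2-fold higher, with medians of 0.61 and 0.54. Of 68 genes of G2 and mitosis 64 were higher on both, 13 at least 2-fold, with medians of 0.93 and 0.67. Hells, a chromatin remodeller of replicating DNA, had 5.27 on the control and 7.03 and 7.28 at 48 h. Rrm2, which makes deoxyribonucleotides, had 5.71 and then 7.28 and 7.15, with its other probe set at 0.35. Lig1, the replicative DNA ligase, had 5.42 and then 6.60 and 6.64, and Mcm5, a subunit of the replicative helicase, had 6.06 and then 6.95 and 6.98. The 48 h arrays agreed closely in these genes.

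In mitosis, Mki67, a marker of cycling cells, had 7.69 on the control and 9.47 and 9.33 at 48 h, a difference of 1.71 ± 0.13. Top2a, the topoisomerase that untangles sister chromosomes, had 6.52 and then 8.04 and 7.76. The mitotic cyclin gene Ccnb2 had 6.12 and then 7.36 and 7.23, and the kinetochore genes Knl1 (5.34, then 7.07 and 6.73) and Cenpe (5.90, then 7.47 and 7.22) were higher as well. In most of these the first array stood slightly above the second. Each was further from the control at 24 h, where Mki67 was at 1.94, Hells at 2.71 and Ccnb2 at 1.43. The histone gene H2ax was at 1.11 and 1.20 and the chromatin gene Hmgb2 at 1.01 and 0.88, while the medians of 19 histone genes were 0.0 and 0.15. The cell cycle inhibitor gene Cdkn1a, a target of p53, had 9.60 on the control and 9.51 and 9.62.

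Because these genes stood higher together, their promoters were searched for elements known from cell cycle genes. The CCAAT box, bound by NF-Y, and the E2F site are recurring elements in promoters of G2/M and G1/S genes respectively. Sequences are RefSeq promoters of build GRCm38.p6, limited to the 250 bases before the start, on the strand of the gene, with the matched letters in capitals (CCAAT or its reverse complement ATTGG). They are shown for 3 mitotic genes with repeated boxes.
Ccnb2, chr9:70421555-70421674, minus strand: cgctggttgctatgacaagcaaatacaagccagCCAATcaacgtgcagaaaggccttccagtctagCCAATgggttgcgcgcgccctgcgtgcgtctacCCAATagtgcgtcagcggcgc
Top2a, chr11:99024190-99024439, minus strand: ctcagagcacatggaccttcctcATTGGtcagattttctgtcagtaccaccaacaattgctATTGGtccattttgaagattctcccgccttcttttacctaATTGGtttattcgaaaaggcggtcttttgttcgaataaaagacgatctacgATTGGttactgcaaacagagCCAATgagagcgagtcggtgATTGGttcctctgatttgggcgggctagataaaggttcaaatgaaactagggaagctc
Mki67, chr7:135716380-135716579, minus strand: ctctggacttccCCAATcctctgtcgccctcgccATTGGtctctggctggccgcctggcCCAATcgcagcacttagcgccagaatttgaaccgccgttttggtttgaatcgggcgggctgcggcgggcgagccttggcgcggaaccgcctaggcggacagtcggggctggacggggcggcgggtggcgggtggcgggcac

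Ccnb2 held 3 such boxes, Top2a 6 and Mki67 3. Promoter windows were found for 54 of the 68 G2/M genes, 58 windows in all. Of these 67.2% held a CCAAT box on either strand and 41.4% held at least 2, against 33.8% and 10.1% of all 32851 windows of the same length. Among the windows of G1/S genes 61.2% held the box and 32.7% at least 2. The box was not particular to dividing genes. It was in 60.0% of windows of the tricarboxylic acid cycle list, 36.0% with at least 2, and in 53.8% (23.1%) of those of the branched-chain list, both of which were lower at 48 h. It was in 52.8% of windows of the detoxification list, and in 36.6% of the 216 windows found for the 231 genes at least 2-fold lower. The E2F letters searched were TTTGGCGC, TTTCCCGC, TTTCGCGC and TTTGGCGG on either strand, which can overlap each other. They were present in 28.6% of 49 windows of G1/S genes and in 1.96% of all windows. They were also in 6.9% of G2/M windows and 12.0% of windows of the tricarboxylic acid cycle list. The E2F letters are shown for Hells and Mcm5, the latter with 2 overlapping matches.
Hells, chr19:38930890-38930989, plus strand: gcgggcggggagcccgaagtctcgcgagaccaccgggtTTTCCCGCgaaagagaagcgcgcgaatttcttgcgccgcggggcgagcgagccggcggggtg
Mcm5, chr8:75109349-75109508, plus strand: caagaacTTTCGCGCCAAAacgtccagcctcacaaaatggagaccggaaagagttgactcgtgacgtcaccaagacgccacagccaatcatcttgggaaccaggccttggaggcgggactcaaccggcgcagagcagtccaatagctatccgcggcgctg
A match is a run of letters and does not show that the site is bound.

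Genes of ribosome production were higher on both arrays by small amounts. Of 32 nucleolar and ribosome biogenesis genes 27 (84.4%, against 32.2% of all genes) were higher on both, none at 2-fold. The medians were 0.33 and 0.30. Npm1, an abundant nucleolar chaperone, had 9.01 on the control and 9.68 and 10.02 at 48 h, and Ncl, nucleolin, had 8.17 and then 8.88 and 8.97. Nop58, a core protein of the particles that methylate ribosomal RNA, was at 0.75 and 0.62. Of 65 cytosolic ribosomal protein genes 49 (75.4%) were higher on both arrays, with medians of 0.27 and 0.42. Among them were Rps6 (0.44 and 0.59) and Rps23 (0.98 and 0.83). Rpl7l1 was lower (-0.55 and -0.69). Myc, which drives these genes in many tissues, had 7.05 on the control and 7.79 and 7.91.

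Secreted proteins of the epithelial surface held the largest positive differences. Dmbt1, a scavenger receptor protein of mucosal secretions, had 5.91 on the control and 9.25 and 9.94 at 48 h, a difference of 3.69 ± 0.34 or 12.9-fold. Clca1, which processes gel-forming mucus, had 6.90 and then 10.19 and 10.40. Pigr, which carries IgA across the epithelium, had 5.55 and then 8.87 and 8.26. Both arrays lay at least 4-fold above the control for each of these genes. The antibacterial lectin gene Reg3g had 3.81 and then 6.06 and 5.31, and Bpifb1, an antimicrobial protein of mucosal fluids, had 9.0 and then 10.49 and 10.98. Of 29 antimicrobial and IgA genes 19 (65.5%, against 32.2% of all genes) were higher on both arrays. The 4 at least 2-fold higher, against 0.386% of all genes, were Dmbt1, Pigr, Reg3g and Bpifb1. At 24 h Dmbt1 had 9.32, Pigr 8.57 and Clca1 9.23.

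Mucous neck cell genes were higher by less, and not all of them. Of 21 genes of neck cells and metaplasia 13 (61.9%, against 32.2% of all genes) were higher on both arrays and 5 lower. The medians were 0.56 and 0.21. The neck cell gene A4gnt (-0.21 and -1.18) and Olfm4 of this list (-0.74 and -0.78) were below the control on both arrays. Gkn3, a gastrokine of neck cells, had 7.07 on the control and 8.84 and 7.93 at 48 h. The neck mucin gene Muc6 was at 0.56 and 0.12, the trefoil factor gene Tff2 at 0.14 and 0.21 and the secreted chaperone gene Clu at 0.73 and 0.68. Slc7a11, a cystine transporter, had 4.50 and then 6.15 and 6.04 on its brighter probe set, while its other probe set differed by 0.16. Surface pit cell genes had no common direction, with 6 of 17 higher on both arrays (35.3%, against 32.2% of all genes), 3 lower and medians of 0.11 and -0.05. Muc5ac, the mucin of these cells, was at 0.54 and 0.42, and the pit cell genes Gkn1 (0.02 and -0.05) and Gkn2 (0.06 on both) lay at the control value. Ttr, also counted among pit cell genes, was at -1.86 and -1.38. Ly6d, a surface protein of squamous and other epithelia, had 7.21 and then 8.64 and 8.70, while the squamous keratin gene Krt14 had 4.58, 4.57 and 4.65.

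Detoxification genes included 7 of 52 at least 2-fold higher on both arrays (against 0.386% of all genes) and 1 at least 2-fold lower. The largest were Ces1f, a carboxylesterase (6.69 on the control, 8.98 and 8.77 at 48 h), and the glutathione transferase gene Gsta3 (5.72, then 8.05 and 7.38). Akr1b8, an aldo-keto reductase, had 6.22 on the control and 8.30 and 7.80 at 48 h. Gstm3 (2.24 and 1.35), Ces1g (2.21 and 1.28) and the cytochrome P450 gene Cyp2b10 (1.19 and 2.23) were higher by unequal amounts on the arrays. Nqo1, a quinone reductase and a common target of the oxidative stress factor Nrf2, had 10.50 and then 11.50 and 10.76, so the second array lay near the control. The list as a whole had medians of 0.29 and 0.11.

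Interferon-stimulated genes were higher on the first array and close to the control on the second. Of 59 genes 34 (57.6%, against 32.2% of all genes) were higher on both arrays, but the medians were 0.65 and 0.07. Between the arrays 13 genes differed at least 2-fold. Only Oas2 and Oasl2, of the family of double-stranded RNA sensors, were at least 2-fold higher on both. Oas2 had 5.41 on the control and 8.10 and 6.96 at 48 h, and Oasl2 had 6.79 and then 9.15 and 7.81. Ifit1, which binds foreign RNA ends, had 4.66 on the control and 7.16 and 5.26, with 7.42 at 24 h, 6.93 at 36 h and 7.34 and 7.55 at 72 h. The helicase gene Ddx60 had 5.55 and then 8.13 and 6.36, and 7.43 to 7.99 on the other 4 toxin arrays. For both genes the second 48 h array was the toxin array nearest to the control. Irf7, the factor that amplifies the response, was at 1.58 and 0.69, and the GTPase gene Igtp at 1.11 and 0.92. Ifi27l2b ran the other way on both arrays, at -1.06 and -1.48. Antigen presentation genes differed by less, with Tap1 at 0.83 and 0.61 and list medians of 0.22 and 0.14 over 27 genes.

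The interferon response element, bound by the STAT and IRF factors, was searched by its core GAAANNGAA on either strand, where N is any base. It was present in 42.6% of 54 promoter windows, found for 43 of the 59 interferon genes, and in 7.13% of all windows. It is shown for Ifit1 and Ddx60, on which the arrays differed, with all matches in capitals and 2 of the 3 in Ifit1 overlapping.
Ifit1, chr19:34640769-34640888, plus strand: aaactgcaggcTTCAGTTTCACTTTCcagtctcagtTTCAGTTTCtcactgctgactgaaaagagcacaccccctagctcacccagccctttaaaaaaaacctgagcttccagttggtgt
Ddx60, chr8:61928007-61928086, plus strand: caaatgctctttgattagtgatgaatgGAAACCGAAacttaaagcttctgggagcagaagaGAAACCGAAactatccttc

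Endothelial genes were lower on both arrays by similar amounts. Of 27 genes of blood vessels and VEGF signalling 20 (74.1%, against 34.3% of all genes) were lower on both, 5 at least 2-fold. The medians were -0.55 and -0.51 at 48 h and -0.38 at 24 h. Vegfb, a growth factor of this family, had 9.57 on the control and 7.76 and 7.92 at 48 h. Kdr, the main VEGF receptor of endothelium, had 8.27 and then 6.79 and 6.70, and Emcn, a sialoprotein of capillaries and veins, had 7.42 and then 5.71 and 5.92. The fenestral diaphragm gene Plvap was at -1.24 and -1.47 and the endothelial cadherin gene Cdh5 at -0.76 and -0.83. Vegfa, the ligand released by many epithelia, showed a smaller difference, at -0.56 and -0.44.

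Stromal genes were lower in part. Of 17 fibroblast genes 12 (70.6%, against 34.3% of all genes) were lower on both arrays, with medians of -0.31 and -0.55. Among them were the proteoglycan gene Dcn (-0.37 and -0.77) and the growth factor receptor gene Pdgfra (-0.31 and -0.63). Of 42 collagen genes 20 (47.6%, against 32.2% of all genes) were higher and 2 lower on both arrays, with medians of 0.02 and 0.10. Col6a5, a chain of the microfibrillar collagen VI, was the only one at least 2-fold higher, with 5.36 on the control and 6.99 and 6.92 at 48 h, and 5.98 at 24 h. Among secreted signals, the chemokine gene Cxcl12 had 8.16 on the control and 6.77 and 6.74, and Bmp4, a signal from stroma to epithelium, had 8.58 and then 7.82 and 7.38. Bmp7, an epithelial member of that family, was at -0.93 and -1.12, and its target Id2 at -0.68 and -0.94. The hedgehog ligand genes Shh (0.50 and 0.49) and Ihh (0.41 on both) were above the control. Smooth muscle genes showed small differences, with 13 of 19 (68.4%, against 34.3% of all genes) lower on both arrays and medians of -0.16 and -0.23. Gpm6a, a membrane glycoprotein of mesothelium and neurons, had 8.93 and then 7.12 and 6.59, while Msln, the defining mesothelial gene, was at 0.62 and 0.20.

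Immune genes gave a mixed picture. The neutrophil genes S100a8 (2.81 on the control, 2.88 and 2.91 at 48 h) and S100a9 (3.89, then 4.12 and 4.33) had low signal on all 3 arrays. Of 18 macrophage genes 2 were higher and 7 lower on both arrays, the latter 38.9% against 34.3% of all genes and so near the background. Of 11 mast cell genes 5 (45.5%, against 32.2% of all genes) were higher and 2 lower on both arrays, with medians of 0.0 and 0.18. The protease gene Mcpt2 had 3.60 on the control and 4.88 and 5.45 at 48 h, and Cpa3 had 5.32 and then 6.60 and 6.67. Kit, the growth factor receptor of mast cells and of pacemaker cells of the gut wall, was lower, with 8.39 and then 6.84 and 6.90. The mast cell gene Ms4a2 was lower by less (-0.04 and -0.33). The standard errors of Mcpt2 (0.94) and Cpa3 (0.82) were large beside their differences (1.57 and 1.31). For Cpa3 the 72 h arrays, which enter the spread, had 7.10 and 5.42. Of the type 2 signals, Il33 was at -0.91 and -1.35 and the eosinophil chemokine gene Ccl11 at -1.60 and -1.39, while Chil4, a chitinase-like protein induced by such signals, was at 1.27 and 2.60. Of 20 tuft cell genes 15 (75.0%, against 32.2% of all genes) were higher on both arrays, none at 2-fold. The medians were 0.24 and 0.25. The tuft cell genes Plcb2 (0.64 and 0.89) and Dclk1 (0.44 and 0.45) were above the control, and Pou2f3, the factor that defines the lineage, had 4.20 on all 3 arrays.

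Endocrine genes showed no common direction. Of 25 hormone and granin genes 7 were higher and 11 lower on both arrays, near the background shares. Chgb, a granin of secretory granules, had 6.93 on the control and 8.28 and 8.36 at 48 h, and 8.75 at 24 h. Gast, the hormone of antral G cells, had 5.83 and then 7.32 and 6.68. The somatostatin gene Sst (-1.24 and -0.65) and the ghrelin gene Ghrl (-0.91 and -0.41) were below the control, and Slc18a2, the transporter that loads histamine, was at -1.10 and -0.38. Among stress genes, Egr1 (1.14 and 1.54) and Atf3 (0.99 and 1.15) were higher, and Fos had opposite signs on the arrays (0.54 and -0.26). Of 20 genes of the hypoxia response 11 (55.0%, against 34.3% of all genes) were lower on both arrays and none higher. Gabarapl1, of the autophagy machinery, had 8.91 on the control and 7.66 and 7.49.

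**Figure D4:**
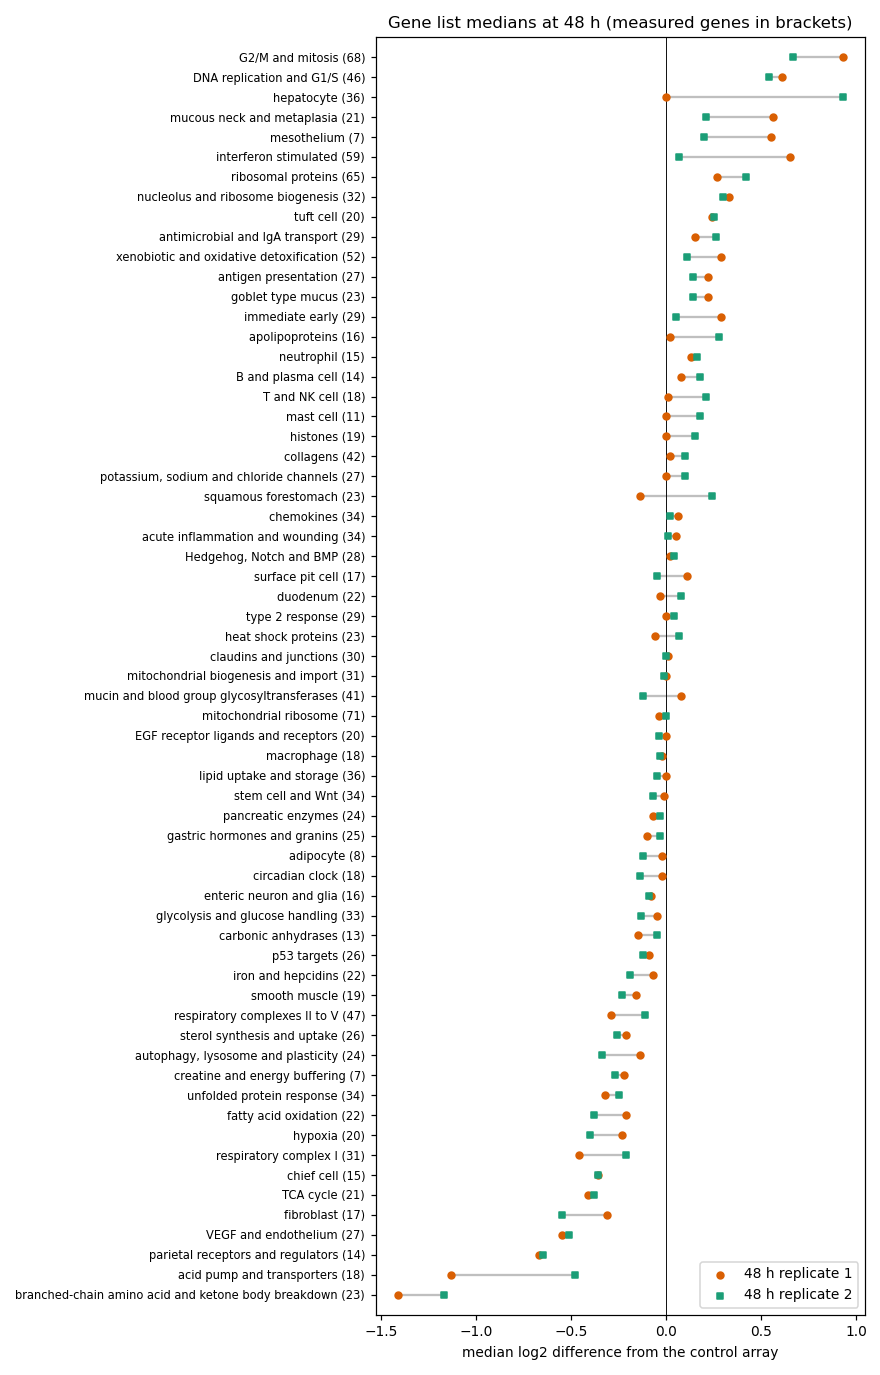
Median log2 difference from the control array (x axis) of 63 gene lists on the first (circles) and second (squares) 48 h array, with the number of measured genes in brackets. The branched-chain amino acid list lies lowest at -1.41 and -1.17 and the G2/M list highest on the first array at 0.93, while the hepatocyte (0.0 and 0.93) and interferon (0.65 and 0.07) lists stand apart on the paired arrays.

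On 107 genes (0.503%) the 48 h arrays differed from each other by at least 2-fold, with the first higher in 46 and the second in 61. The 72 h pair differed this far in 67 genes. In 8 genes the arrays lay on opposite sides of the control by at least 0.5 log2 units each. Part of the 107 genes fell in the groups described below, for which a mean of the pair describes neither array. The disagreement was not confined to those groups. Without the hepatocyte, squamous and pancreatic lists 83 genes remained, and the interferon list held 13.

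Several liver genes were far higher on the second 48 h array than on the first. Alb, serum albumin, had 4.49 on the control and 4.70 and 9.60 at 48 h, and 4.70 to 5.49 on the other 4 arrays. The antitrypsin genes Serpina1c (2.58, then 2.86 and 7.38) and Serpina1d (2.63, then 2.16 and 6.47) had the same pattern, as did Mup3, a major urinary protein (2.79, then 2.56 and 5.34). Hamp, the hepatic iron hormone, had 2.82 on the control and 3.35 and 7.36, and 4.52 at 24 h. Of 36 hepatocyte genes, a list added after these values had been seen, 18 differed at least 2-fold between the arrays, and the list's median signal was 4.29 on the first array and 5.20 on the second against 4.23 on the control. Cyp2e1, another liver gene, was high on the second 48 h array (7.10) and on the 36 h array (7.20), with 4.62 on the control. Whether liver RNA contributed to the second array was not tested. Leaving out the hepatocyte, squamous and pancreatic lists gave 81 genes at least 2-fold higher and 225 lower on both arrays, and 83 that differed between them.

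Several genes of the upper squamous layers were low on the first array, and at or above the control on the second. The squamous list as a whole was not: of 23 genes 7 were higher and 2 lower on both arrays, 5 differed at least 2-fold between them, and the medians were -0.14 and 0.24. Ly6d (1.43 and 1.49) and the keratin gene Krt6b (0.67 and 0.80) were above the control on both. Krt4, a keratin of stratified epithelium, had 7.79 on the control and 4.21 and 7.74 at 48 h. Krtdap, a keratinocyte differentiation protein, had 7.14 and then 3.83 and 7.74, and Krt10, a keratin of cornifying layers, had 7.47 and then 5.14 and 8.29. The 72 h pair was split in the same way, with 8.51 and 4.12 for Krt4. These genes mark the forestomach, which borders the corpus, and the share of it in each sample was not tested. Serpinb12, Sprr3, Cnfn, Krt1, Krt10 and Krtdap made up 6 of the 8 genes on opposite sides of the control. Krt14, of the basal layer, had 4.57 and 4.65 on the 48 h arrays.

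Several intestinal mucus and transport genes were higher on the first array. Slc9a3, a sodium and proton exchanger, had 4.78 on the control and 7.66 and 4.86 at 48 h. Fcgbp, a mucus protein, had 4.57 and then 7.81 and 5.18, and Zg16, a lectin of goblet cell granules, had 3.34 and then 6.67 and 4.21. Both were high at 36 h (9.50 and 8.27) and at 72 h (8.79 and 8.72 for Fcgbp, 8.17 and 7.94 for Zg16), and at 24 h they were near the control (4.05 and 3.60). The chloride channel gene Cftr had 3.52 and then 5.93 and 4.37, and Kcne3, a potassium channel subunit, had 5.48 and then 8.86 and 6.83. Clca1, by contrast, was equally high on both arrays. Pga5 and the macrophage elastase gene Mmp12 (4.33, then 6.07 and 4.29) were also higher on the first array than on the second.

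**Figure D5:**
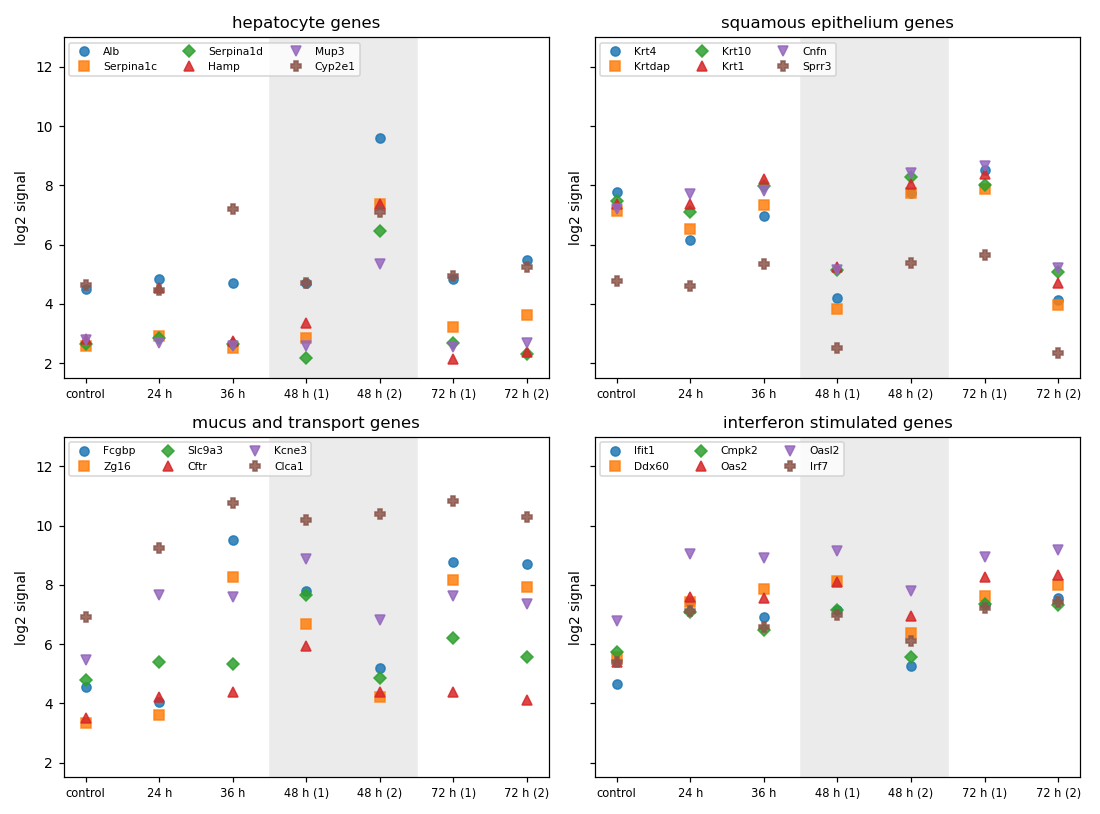
Log2 signal (y axis) on each of the 7 arrays (x axis, 48 h arrays shaded) for hepatocyte, squamous, mucus and transport, and interferon-stimulated genes, 1 point per gene and array. The hepatocyte genes are high on the second 48 h array, where Alb has 9.60 against 4.70 on the first, the squamous genes shown are low on the first 48 h and second 72 h arrays, and the interferon genes are lower on the second 48 h array than on the first.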

How the data were processed

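RNA from gastric corpus was measured on 7 single-channel Affymetrix arrays. The authors deposited log2 signal for 41345 probe sets, made with Partek and RMA per the submitters' processing notes; their versions are not known here. RMA gives every array a similar distribution, so differences are relative. Of the probe sets, 23521 carried 1 gene symbol, 1814 several and 16010 none; the highest-mean probe set stood for each of 22180 genes, and 916 genes on X or Y were left out. The test was a moderated linear model of 5 group means over 7 arrays (limma version 3.58.1, R version 4.3.3, functions lmFit and eBayes), with 2 residual degrees of freedom and Benjamini-Hochberg adjustment, checked on simulated data. The lone control was assumed to vary like the pairs, and the number of arrays limits precision.

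Named genes were the 20 highest and 20 lowest by the smaller 48 h difference, the 12 furthest apart each way, up to 6 on opposite sides each way, and anchors (3 per list) and up to 6 further members of 63 gene lists. The members and lists were chosen with earlier results of these data known, and 2 lists (hepatocyte, branched-chain) after these values were seen. Promoters are RefSeq's, from GRCm38.p6. Alternatives varied scaling, probe set choice, dim genes, the fit and the arrays.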

Additional observations from a re-analysis of the deposited data

How the results depend on the processing

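The count of genes with a limma adjusted p under 0.05 was 0 as reported, 71 after array medians were subtracted, 9 after quantile normalisation was repeated and 354 with least squares without moderation, and the cause was not tested. It was 0 under the other fits, including those without either 48 h array. Genes at least 2-fold higher on both arrays numbered 82, against 360 at 1.5-fold, 9 at 3-fold and 147 to 203 with 1 array alone. Genes at least 2-fold lower numbered 231, against 784, 60 and 334 to 369. Other alternatives gave 68 to 97 higher, 185 to 230 lower and 72 to 117 genes that differed between the arrays. Repeated quantile normalisation turned the sign of Gkn2 (-0.0), Hadha (0.02) and the medians of the acute inflammation (-0.01) and circadian clock (0.01) lists. All were near 0 as reported. Of 547 named genes, 83 moved by more than their limma standard error and 458 did not. The probe sets of 14 named genes disagreed. No paired analysis was possible because the control carries no replicate number in the labels. A single control array and 2 arrays at 48 h limit every difference, and on these arrays alone the sex pattern of Xist and Eif2s3y cannot be told apart from treatment.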
